A study of Mus musculus with 3 samples.

Results

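The miR-200 family in the mouse consists of 5 hairpins in 2 genomic clusters, with Mir200b, Mir200a and Mir429 on chromosome 4 and Mir200c and Mir141 on chromosome 6. These hairpins were chosen by name, as the members of the 2 clusters. No measured value entered this rule, although earlier results of these data were known when it was made. They are 5 of the 1005 mouse miRNA hairpins in the RefSeq table, of which 177 could be placed on the aligned reads by their sequence. All 5 members were placed, each at a single position.

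All reads come from MIN6, an established line of insulin-secreting mouse tumour cells. Small RNA was sequenced from 3 replicate libraries (Illumina TruSeq small RNA kit, HiSeq), all from cells grown in DMEM with 25 mM glucose and 10% heat-inactivated fetal bovine serum. The study's methods describe the libraries as biological replicates. There is no second condition, so each value is given per library and as mean ± SD (n = 3), and comparisons are made between arms and hairpins within the libraries. Ratios were tested by exact two-sided permutation of their sign over the libraries. With 3 libraries this test cannot give a p below 0.25 and so cannot pass a threshold of 0.05 whatever the size of the difference.

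A miRNA hairpin is cut by Drosha and Dicer into a duplex, of which the strand from the 5′ side (5p arm) or the 3′ side (3p arm) is loaded into an Argonaute protein. Bases 2 to 8 of the loaded strand, the seed, pair with target mRNAs, so a read that begins 1 base earlier or later than the reference (a 5′-shifted isomiR) carries another seed. The miR-200 family is known as a marker of epithelial cells that represses the transcription factors ZEB1 and ZEB2, and members of the family have been studied in beta cell survival.

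The mature sequences are shown first, because the seed divides the family in a way that cuts across the 2 clusters. They are the RefSeq sequences (GRCm38.p6), written 5′ to 3′ with the seed in capitals. The 3p arms carry 2 seeds that differ at base 4.
miR-200b-3p: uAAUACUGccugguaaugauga
miR-429-3p: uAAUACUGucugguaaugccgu
miR-200c-3p: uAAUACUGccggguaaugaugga
miR-200a-3p: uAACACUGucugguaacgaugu
miR-141-3p: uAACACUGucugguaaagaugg

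Counting from 1 at the 5′ end, miR-200b-3p differs from miR-200c-3p by U11G and A22G over 22 shared positions, and miR-200a-3p differs from miR-141-3p by C17A and U22G. Each of these pairs joins one member from chromosome 4 with one from chromosome 6. Within a cluster the arms are less alike, with miR-200b-3p and miR-200a-3p differing at 4 of 22 positions (U4C, C9U, U17C and A22U) and miR-200c-3p and miR-141-3p also at 4 (U4C, C9U, G11U and U17A).

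The 5p arms are shown because 1 of them, miR-141-5p, began at 2 common positions. The form that begins 2 bases upstream of the reference is listed as miR-141-5p-2 and is the RefSeq hairpin sequence up to its most frequent templated end.
miR-200b-5p: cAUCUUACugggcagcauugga
miR-200a-5p: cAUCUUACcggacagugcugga
miR-200c-5p: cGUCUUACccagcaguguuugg
miR-429-5p: gUCUUACCagacaugguuaga
miR-141-5p: cAUCUUCCagugcaguguugga
miR-141-5p-2: uCCAUCUUccagugcaguguuggau

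On the genome build named in the submitters' processing notes (mm9), the hairpins lie on the minus strand at chr4:155429790-155429859 (Mir200b), chr4:155429005-155429094 (Mir200a), chr4:155428014-155428096 (Mir429), chr6:124668340-124668408 (Mir200c) and chr6:124667932-124668003 (Mir141). In the direction of transcription, 695 nt separate Mir200b from Mir200a, 908 nt separate Mir200a from Mir429, and 336 nt separate Mir200c from Mir141. In the RefSeq annotation, the chromosome 4 hairpins lie within the long non-coding RNA gene Gm13648 and next to Ttll10. The chromosome 6 hairpins lie between the protein-coding genes Phb2 and Ptpn6.

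The mapped reads summed to 9269795, 10816006 and 10218743 in replicates 1, 2 and 3, and levels are given as RPM, the reads of an arm scaled to 1000000 mapped reads. Level and abundance here therefore mean reads. Whether different sequences enter the libraries equally well was not tested. Ratios between arms, hairpins or clusters are thus ratios of reads and need not be those of molecules in the cells. A count of 0 allows up to 3 reads, or 0.277 to 0.324 RPM. Mir375, the hairpin of the endocrine miRNA miR-375, held 345200 to 383000 RPM. Mir126a, a hairpin known from endothelial cells, was at 127.3 to 155.9 RPM, and the blood cell hairpins Mir142, Mir223 and Mir451a could not be placed. The libraries were made from whole cultures, so fewer cells holding an RNA and less RNA per cell cannot be told apart.

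The family as a whole was detected at 9598, 8816 and 8176 RPM (8863 ± 712 RPM, SD, n = 3), which is 0.818% to 0.960% of the mapped reads. The family was highest in replicate 1 and lowest in replicate 3, whereas Mir375 was lowest in replicate 1 (345200 RPM) and highest in replicate 3 (383000 RPM). Relative to mapped reads without those of Mir375, the family was at 14660, 13970 and 13250 RPM, so the libraries kept their order.

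The 3p arms carried most of the family. miR-141-3p, from chromosome 6, was the most abundant arm, at 4476, 4089 and 3930 RPM (4165 ± 281 RPM). Its most abundant 5′-start ranked 24 to 25 among all 5′-starts in the libraries. miR-200b-3p, from chromosome 4, followed at 2482, 2194 and 1873 RPM (2183 ± 305 RPM). miR-200c-3p, the chromosome 6 arm most similar to it, was at 1274, 1320 and 1195 RPM (1263 ± 63.2 RPM). These 3 arms did not overlap in any pair of libraries, and miR-200b-3p had the largest relative spread of the 3p arms, with a coefficient of variation of 14% where counting error alone gives 0.675%.

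The other 3p arms were both from chromosome 4. miR-429-3p was at 635.8, 528.7 and 510.8 RPM (558 ± 67.6 RPM). miR-200a-3p, the arm most similar to miR-141-3p, was at 462.8, 423.8 and 412.2 RPM (433 ± 26.5 RPM). miR-429-3p was thus the closest neighbour of miR-200a-3p in level, and its lowest library was still above the highest library of miR-200a-3p.

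The 5p arms were lower than every 3p arm. miR-141-5p was at 220.9, 218.2 and 213.4 RPM (217.5 ± 3.80 RPM), a spread of 1.75% that is below the 2.13% expected from counting alone. miR-200a-5p was at 23.95, 21.91 and 22.51 RPM (22.8 ± 1.05 RPM), and miR-200b-5p at 16.4, 15.16 and 15.07 RPM (15.5 ± 0.741 RPM). miR-200c-5p rested on 61, 66 and 39 reads, or 6.58, 6.10 and 3.82 RPM. No read of miR-429-5p was found in any library, which allows up to 3 reads per library. Neighbouring arms in this order did not overlap between libraries, although with 3 libraries the smallest possible exact permutation p for any such pair is 0.25.

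**Figure D1:**
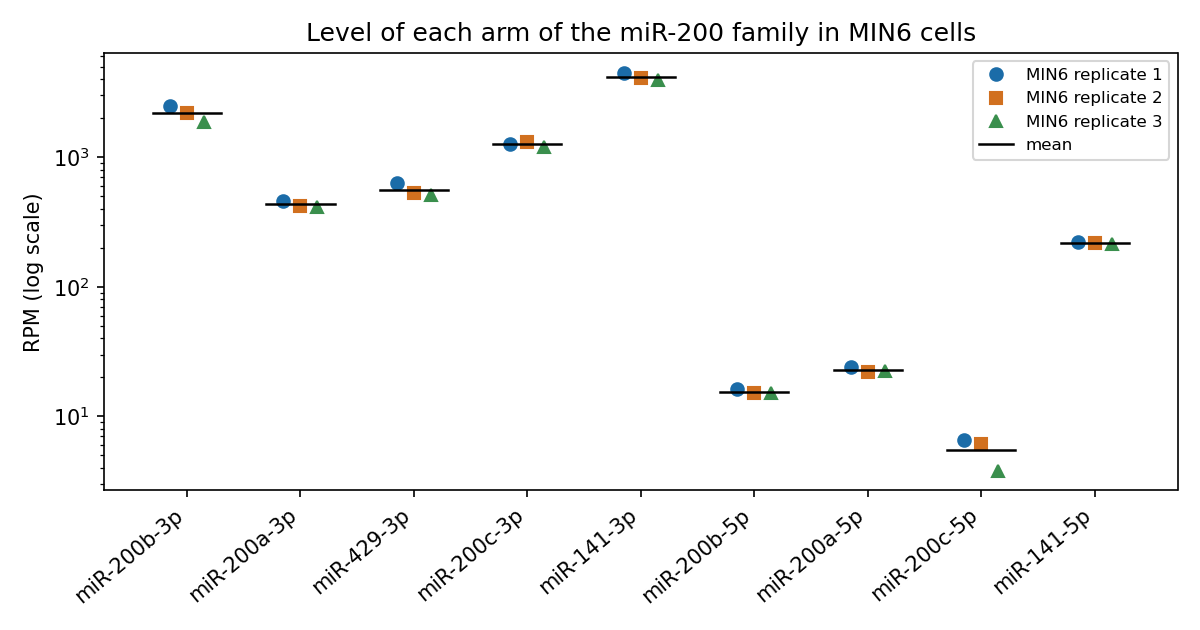
RPM (log scale) of the 9 arms of the miR-200 family with reads, with a point for each of the 3 MIN6 libraries and a line at the mean. The 3p arms span 412.2 to 4476 RPM and lie above all 5p arms, of which miR-141-5p is the highest at 217.5 RPM.

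Reads of the 2 clusters were then compared within each library. The chromosome 4 cluster held 3621, 3183 and 2833 RPM, and the chromosome 6 cluster held 5977, 5633 and 5342 RPM. The ratio of chromosome 4 to chromosome 6 was 0.606, 0.565 and 0.530 (0.567 ± 0.0377, exact two-sided permutation p = 0.25), below 1 in 3 of 3 libraries. Mir141 alone held 4383 ± 284 RPM, more than the whole chromosome 4 cluster in every library.

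Arms from the same cluster were far from equal in reads. On chromosome 4, miR-200b-3p was 5.36, 5.18 and 4.54 times as abundant as miR-200a-3p and 3.90, 4.15 and 3.67 times as abundant as miR-429-3p. On chromosome 6, the ratio of miR-200c-3p to miR-141-3p was 0.285, 0.323 and 0.304. The steadiest ratio between 3p arms was that of miR-200a-3p to miR-141-3p, which lie on different chromosomes and share a seed, at 0.103, 0.104 and 0.105 (0.104 ± 0.000783). Its relative spread was below the 1.51% that counting error alone gives for miR-200a-3p. Whether the steadiness is a property of this pair was not tested. All 3 libraries gave each of these ratios on the same side of 1 (exact permutation p = 0.25 for each). In all, 19 ratios between arms, clusters or seeds were tested, and each had an exact permutation p of 0.25, which is also the Benjamini-Hochberg adjusted value.

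Grouped by seed, the 3p arms were closer to equal than when grouped by cluster. The 3 arms with the seed AAUACUG (miR-200b-3p, miR-200c-3p and miR-429-3p) together held 4391, 4042 and 3578 RPM. The 2 arms with the seed AACACUG (miR-200a-3p and miR-141-3p) held 4939, 4513 and 4343 RPM. The ratio of the first to the second seed was 0.889, 0.896 and 0.824 (0.870 ± 0.0396, exact permutation p = 0.25). The seeds divided in opposite ways on the 2 chromosomes, with a ratio of 6.31 ± 0.486 on chromosome 4, where AAUACUG prevailed, and 0.304 ± 0.0191 on chromosome 6, where AACACUG prevailed.

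Reads of the 5p arms made up 2.79%, 2.97% and 3.12% of the family (2.96 ± 0.163%), with 95% Wilson intervals from 2.69% to 3.24% that cover counting error only. The hairpins fell into a higher and a lower group in this respect. The 5p share was 4.92%, 4.92% and 5.18% for Mir200a and 4.70%, 5.07% and 5.15% for Mir141, and these ranges overlap. It was 0.656%, 0.686% and 0.798% for Mir200b and 0.514%, 0.460% and 0.318% for Mir200c, and these ranges do not overlap. The hairpins whose 3p arm carries the seed AACACUG thus had a higher share of 5p reads in every library than those with AAUACUG, among which Mir429 had 0 such reads beside 5219.8 to 5893.5 reads of its 3p arm.

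The 5′-start of the 3p arms, which sets the seed, was nearly uniform. The most abundant start was the RefSeq start in all 5 arms, with a mean share from 98.1% (miR-200b-3p) to 99.6% (miR-429-3p) of the reads of the arm. Over the family, 1.51% of the 3p reads began elsewhere. The 5′-shifted isomiR miR-200b-3p+1, which begins 1 base downstream, held 1.70%, 1.60% and 1.90% of its arm, and its seed is AUACUGC. On chromosome 6, the shift went the other way. miR-200c-3p-1 (seed UAAUACU) held 1.37%, 1.56% and 1.67% of its arm, and miR-141-3p-1 (seed UAACACU) held 1.40%, 1.37% and 1.33%. No other shifted start reached 1% of a 3p arm in every library.

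miR-141-5p was the exception among the arms. Its reference start held 68.1%, 68.3% and 67.0% of the reads, and miR-141-5p-2 held 28.9%, 29.2% and 30.3% (29.5 ± 0.728%, Wilson intervals from 26.98% to 32.22%). The seed of miR-141-5p-2 is CCAUCUU, compared with AUCUUCC at the reference start. At 64.1 ± 0.499 RPM, this shifted form alone was more abundant than the whole 5p arm of Mir200a, Mir200b or Mir200c. miR-141-5p-1 held a further 1.77 ± 0.193%. Among the low 5p arms, miR-200b-5p+1 held 6.98 ± 2.09% on 7 to 14 reads per library, and miR-200c-5p+1 held 5.52 ± 4.10% on 2 to 4 reads.

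**Figure D2:**
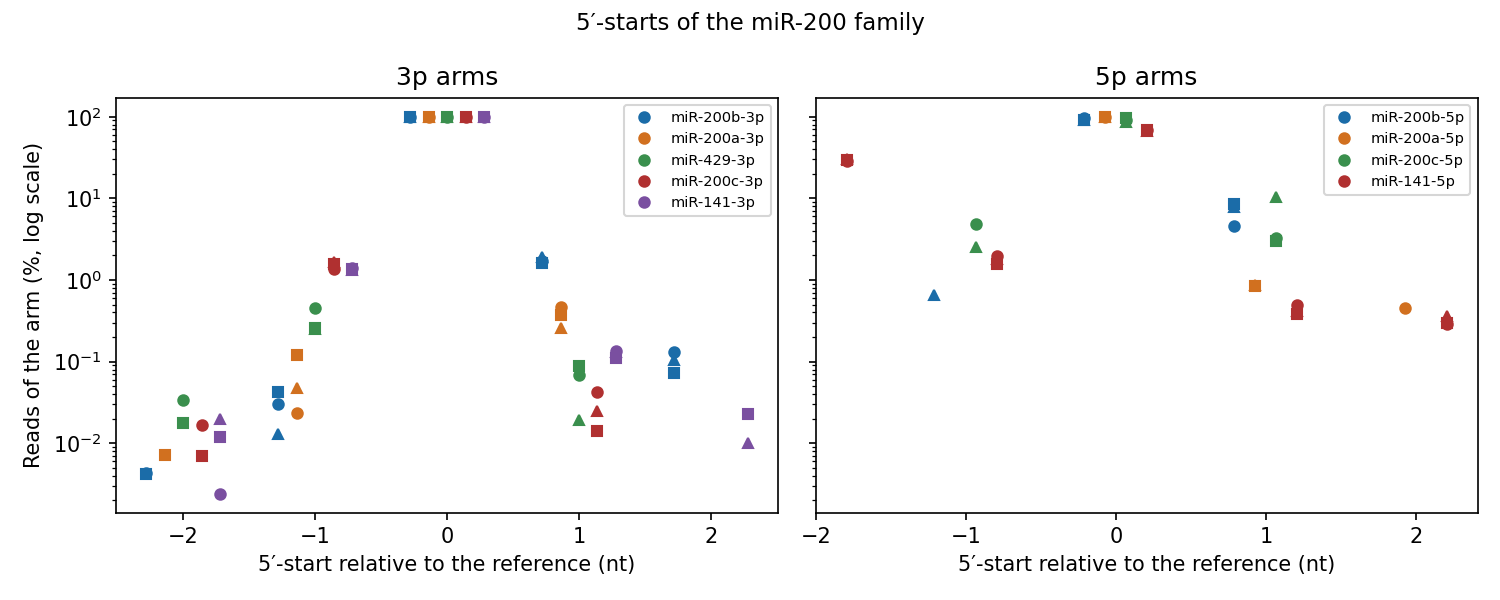
Share of the reads of each arm (percent, log scale) by 5′-start relative to the RefSeq start, with a marker shape for each library and no marker where a library had 0 reads. In the 3p arms all shifted starts lie below 2%, whereas miR-141-5p has 28.9% to 30.3% of its reads at the start 2 bases upstream.

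The 2 common starts of miR-141-5p also differed in where the reads ended. Ends are given here as the last base that matches the genome (the templated end), counted from the reference start of the arm. Of the reads at the reference start, 82.2%, 83.0% and 83.4% ended at base 22 and 15.3 ± 0.597% at base 23. Of the miR-141-5p-2 reads, 40.8 ± 3.39% ended at base 23, 34.6 ± 1.98% at base 20 and 13.2 ± 1.37% at base 22. Base 23 is U in the hairpin, so a read that ended at base 22 and gained a U is counted at base 23. By this count, the shifted reads were a mixture of a 25-nt and a 22-nt templated form in place of a single 22-nt form. The shifted 3p starts varied in this respect. Of the miR-141-3p-1 reads, 87.3 ± 0.588% ended at base 21, compared with 80.8 ± 0.963% at the reference start, and of the miR-200b-3p+1 reads, 98.8 ± 0.638% ended at base 23, compared with 92.3 ± 0.354%. The miR-200c-3p-1 reads were more divided than those at the reference start, with 45.8 ± 3.85% at base 23, 37.4 ± 0.404% at base 22 and 7.99 ± 2.32% at base 20, compared with 66.0 ± 0.734% at base 23 and 27.1 ± 0.456% at base 22.

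Read lengths divided the 3p arms differently from the seed. miR-200b-3p and miR-200c-3p were mostly 23 nt long, at 76.2 ± 0.250% and 57.0 ± 0.684% of their reads. miR-141-3p and miR-429-3p were mostly 21 nt long, at 79.6 ± 0.905% and 69.6 ± 0.610%. miR-200a-3p had no single dominant length, with 43.1 ± 0.755% at 23 nt, 29.6 ± 0.466% at 21 nt and 21.9 ± 0.528% at 22 nt. For comparison, the 209 5′-starts in the libraries with at least 1000 reads in each library and a most frequent length of 20 to 24 nt had a median of 71.6% of reads at that length (quartiles 55.1% and 85.4%). The most abundant start of miR-200a-3p, at 43.3%, was below the lower quartile, and 186 of the 209 starts were higher.

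**Figure D3:**
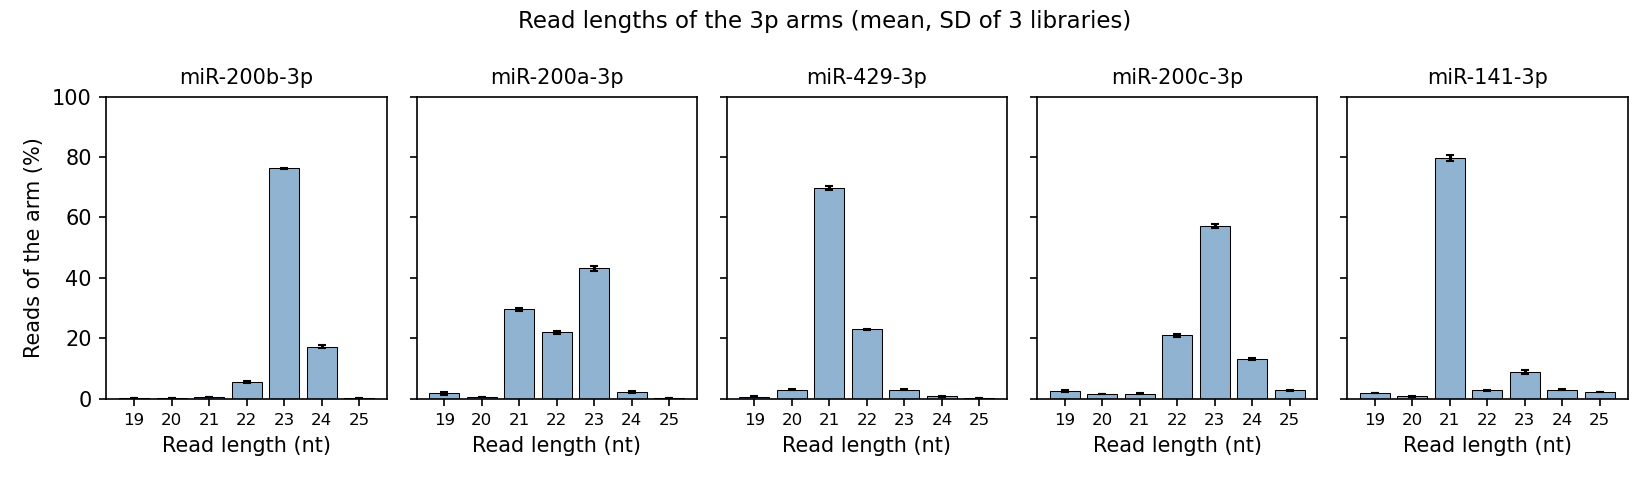
Read lengths of the 5 3p arms from 19 to 25 nt, with bars for the mean percent of the reads of the arm and error bars for the SD over 3 libraries. miR-200b-3p and miR-200c-3p peak at 23 nt, miR-429-3p and miR-141-3p at 21 nt, and miR-200a-3p is split between 21, 22 and 23 nt.

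The templated ends placed these lengths on the hairpins. The most frequent templated end of miR-200b-3p was base 23 (92.4 ± 0.339% of its reads), 1 base beyond the RefSeq mature sequence. The most frequent templated forms that differ in length from the RefSeq mature sequence are listed, again with the seed in capitals.
miR-200b-3p, most frequent form: uAAUACUGccugguaaugaugac
miR-200a-3p, most frequent form: uAACACUGucugguaacgauguu
miR-429-3p, most frequent form: uAAUACUGucugguaaugccg
miR-141-3p, most frequent form: uAACACUGucugguaaagaug
miR-200c-3p ended most often at base 23, as in RefSeq (65.7 ± 0.779%), and at base 22 in 27.2 ± 0.457% of its reads. miR-141-3p ended at base 21 in 80.8 ± 0.946% and at base 23 in 10.2 ± 0.669%, with only 1.39 ± 0.0761% at base 22, the end of the RefSeq sequence. miR-429-3p ended at base 21 in 68.9 ± 0.358% and at base 22 in 25.7 ± 0.339%. The most frequent form was thus longer than the RefSeq sequence for miR-200b-3p and miR-200a-3p and shorter for miR-429-3p and miR-141-3p. Bases 22 and 23 of miR-200a-3p are both U, so its longer form cannot be told apart from a shorter end with added U. In the 4 hairpins with reads on both arms, the most frequent forms of the arms span 59 nt (Mir200b), 61 nt (Mir200a) and 63 nt (Mir200c and Mir141) from the first base of the 5p arm to the last base of the 3p arm.

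Many reads carried 1 or more bases at the 3′-end that do not match the genome. Terminal uridines and adenines can be added to mature miRNAs by nucleotidyl transferases. Over the family, 10.5% of the 3p reads ended in a mismatch, and the arms fell into separate groups. The share was 20.7% to 21.4% for miR-200c-3p and 19.7% to 20.6% for miR-200b-3p, and these ranges do not overlap but lie within 2 percentage points. It was 5.75 ± 0.385% for miR-429-3p, 3.72 ± 0.0654% for miR-141-3p and 2.90 ± 0.380% for miR-200a-3p. The 209 comparison starts had a median of 6.20% (quartiles 1.86% and 17.3%), so that miR-200b-3p and miR-200c-3p lay above the upper quartile, with 49 and 47 starts higher. The other 3 arms lay between the quartiles. An added base that equals the next hairpin base is not counted as a mismatch. These shares can therefore be too low, to a different extent in each arm.

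A single U was the most frequent single added base in 4 of the 5 3p arms in every library, miR-200a-3p being the exception. It was found on 13.9%, 13.8% and 14.8% of the miR-200b-3p reads and on 13.8 ± 0.323% of the miR-200c-3p reads. A single U was found on 2.92 ± 0.216% of the miR-429-3p reads, 2.86 ± 0.0386% of the miR-141-3p reads and 1.23 ± 0.363% of the miR-200a-3p reads, beside a median of 2.30% in the comparison starts (quartiles 0.207% and 10.5%). In miR-200a-3p a single A was as frequent as a single U within the spread, at 1.31%, 1.10% and 1.07% for A and 1.10%, 0.949% and 1.64% for U. The next hairpin base is U after bases 21 and 22 of miR-200a-3p, the ends of 29.8% and 21.7% of its reads. It is also U after base 21 of miR-429-3p, the end of 68.9% of its reads. Added U cannot be seen at these ends, so the U shares of both arms are not directly comparable with those of miR-200b-3p and miR-200c-3p.

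The share with an added U also depended on where the templated part ended. Among miR-141-3p reads at the reference start, a U followed 0.420 ± 0.0176% of those that ended at base 21 but 13.7%, 15.2% and 14.2% of those that ended at base 23. The value at base 21 rests on a sequence that was divided equally between Mir141 and Mir200a. It would be 0.0120% with that sequence assigned to Mir200a only and 0.824% with it assigned to Mir141 only, an alternative chosen after seeing the data. Among miR-200c-3p reads, a U followed 19.8 ± 0.676% of those that ended at base 22 and 11.8 ± 0.190% of those that ended at base 23. Base 23 of miR-200c-3p is A, so a base-22 read with an added A is counted at base 23. Reads of miR-200b-3p that ended at base 23 were followed by a U in 14.1 ± 0.478% and by an A in 2.93 ± 0.0552%. In contrast, those that ended at base 22 were followed by an A in 17.2 ± 0.541% and by a U in 2.40 ± 0.442%. Thus the same arm had mostly an added U at one end and mostly an added A 1 base earlier, by this count. Base 23 of miR-200b-3p is C, and most of its reads end there. A base-22 read with an added A cannot be told apart from a base-23 read whose last C is read as A.

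An added base that equals the next base of the hairpin cannot be told apart from a longer templated read. Among the 3p ends given here, the next base is U after bases 21 and 22 of miR-200a-3p and after base 21 of miR-429-3p. The share of added U at these ends is therefore 0 by construction. At ends where the next base is not U, a U followed 2.36 ± 0.720% of the miR-200a-3p reads (base 23) and 8.13 ± 0.617% of the miR-429-3p reads (base 22). At base 23, miR-200a-3p was thus below miR-429-3p at base 22. It was near miR-200b-3p at base 22 (2.40 ± 0.442%) and above miR-141-3p at base 21 (0.420 ± 0.0176%). Base 23 of miR-200a-3p and base 22 of miR-429-3p are themselves U. A shorter read with several added U is therefore counted at these ends.

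**Figure D4:**
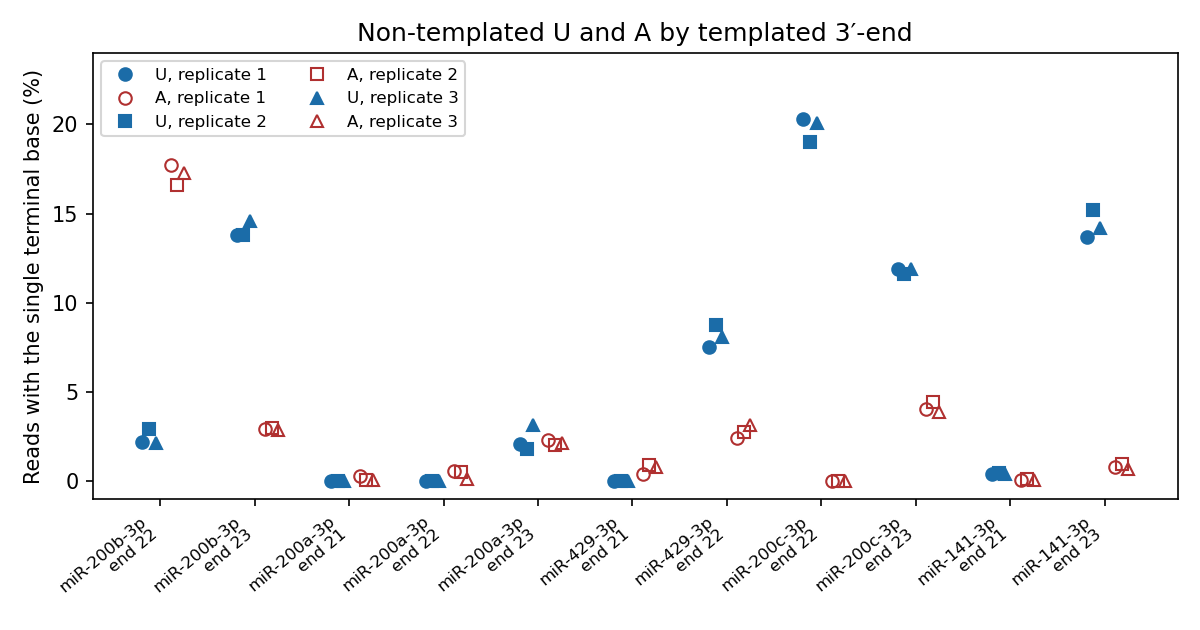
Share of 3p reads at the reference start that carry a single non-templated U (filled) or A (open), for each templated 3′-end that held at least 5% of the reads, with a marker shape for each library. The U share of miR-141-3p is below 1% at base 21 and 13.7% to 15.2% at base 23, and miR-200b-3p has mostly A at base 22 and mostly U at base 23. An added base that equals the next hairpin base cannot be seen, such as A after base 22 of miR-200c-3p.

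Among the 5p arms, miR-141-5p had the most terminal mismatches, at 20.3%, 24.6% and 26.1% of its reads. A single U accounted for 9.65 ± 0.494% and a run of several bases for 6.74%, 10.6% and 11.1%, so the spread between libraries lay mainly in the runs, which were lowest in replicate 1. Of the reads at its reference start that ended at base 23, a U followed 51.1%, 53.7% and 52.3%, the highest share at any end of the family given here. The hairpin base after base 22 is U, so a base-22 read with an added U is counted as ending at base 23. There were 214 to 246 reads per library at base 23 and 1146 to 1338 at base 22. The U share at base 23 therefore need not be that of reads truly cut at base 23. The comparison starts with a higher terminal mismatch share than miR-141-5p numbered 38 of 209. The lower 5p arms had 8.35 ± 1.97% (miR-200b-5p), 4.52 ± 1.16% (miR-200a-5p) and 16.6 ± 3.96% (miR-200c-5p) on 7 to 15 such reads per library.

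Mismatches within the reads were also examined, since A-to-I editing of a miRNA is read as an A-to-G mismatch. Among the named starts, 20 internal mismatches reached 1% of the reads covering the position in every library. Of these, 0 were A-to-G and 13 were A-to-C, over 7 arms, and 11 of the 20 rested on fewer than 10 reads in at least 1 library. Among those on at least 10 reads in every library, the largest was in miR-200a-5p, where A12C (counted from the first base of the read) was found in 21.7%, 23.4% and 24.6% of the reads, or 48 to 56 reads per library. Over all mapped reads of 20 to 24 nt, position 12 held a mismatch to C in 0.911% to 0.953% of the reads, the third highest share of the 20 positions in the libraries.

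The share of A-to-C mismatches at 1 hairpin base differed between the 5′-starts of the arm. The same A of Mir141, base 9 of the reference 5p arm, was read as C in 3.10 ± 0.579% of the reads at the reference start (A9C), in 18.9 ± 3.65% of the miR-141-5p-1 reads (A10C, on 6 to 9 reads) and in 8.95 ± 0.760% of the miR-141-5p-2 reads (A11C). Over all mapped reads of 20 to 24 nt, mismatches to C were found in 0.352% to 0.381% of reads at position 9, 1.25% to 1.47% at position 10 and 0.543% to 0.577% at position 11, an order that is the same as in miR-141-5p. In miR-141-3p-1, A6C was found in 9.28%, 9.07% and 9.57% of the reads, and position 6 held mismatches to C in 1.19% to 1.31% of all reads. The shares over all mapped reads count every read, whatever its base at the position, so they are not on the same scale as those of a single A. The part of these read positions in the mismatches of the family was not tested.

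Because the 3p arms are so alike, 1 mismatch can make the reads of 2 members identical. The most abundant such sequence, shown because it limits what can be assigned to either member, was recorded at Mir200a and at Mir141 with equal counts.
shared sequence: uaacacugucugguaaagaugu
It is miR-200a-3p with C17A, or miR-141-3p up to base 21 with an added U. Its counts were 125, 150.5 and 133.5 reads at each hairpin. They make up most of the C17A reads of miR-200a-3p, of which there were 133, 155.5 and 140.5 (3.12% to 3.41%). In all, 28 distinct sequences were recorded at more than 1 of the 5 hairpins. They held 3.2% to 3.5% of the reads of Mir200a, 0.332% to 0.362% of those of Mir141 and less than 0.2% of those of Mir200b, Mir200c and Mir429, so the levels of the arms depend little on how these reads were divided.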

How the data were processed

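Small RNA-seq alignments of 3 MIN6 libraries were analysed. According to the study's methods, the authors trimmed adaptors with cutAdapt 1.0, aligned reads without mismatches with Bowtie 0.12.7 (up to 20 loci), joined matched regions less than 65 nt apart and widened each by 5 nt (bedtools 2.17.0), and searched only these windows for reads with mismatches, using SHRiMP 2.2.2. Reads with several equally good loci were divided among them, so the deposited values are expected counts per alignment, not normalized and not rounded here. The build is mm9 in the submitters' processing notes. No mm9 sequence was used, so hairpins were placed by matching RefSeq hairpins to the mismatches recorded in the alignments (at least 20 bits and 15 reads at a start), which placed 0 reversed hairpins and was tested on simulated data. Starts were taken as 0-based, and exact alignments, which end 1 base early in the files, were corrected.

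Reads within 5 nt of the RefSeq start were assigned to an arm. Named starts hold at least 1% of an arm in every library, named ends and terminal bases at least 5%, and named internal mismatches at least 1%. Ratios were tested with exact two-sided sign-change permutation over libraries. Depth was 9269795 to 10816006 mapped reads per library. The 95% intervals of shares (Wilson) reflect counting error alone, since reads carry no molecular identifiers. Python 3.11.15, numpy 2.4.6, pandas 2.3.3, scipy 1.17.1, matplotlib 3.10.9, R 4.3.3 and edgeR 4.0.16 (TMM library sizes only) were used. The alternatives were exact or whole-number alignments only, reads of 16 to 27 nt, starts with at least 10 reads, TMM library sizes, the most abundant starts only and leaving out each replicate. Members, lists and tests were chosen with earlier results of these data known. Mir143, a planned marker, was not analysed here.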

Additional observations from a re-analysis of the deposited data

How the results depend on the processing

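The order of the 5 3p arms was the same under the 9 settings in which it was computed, which include the main one. Some of these could not have changed it. Leaving Mir375 reads out of the denominator scales all arms of a library alike, and the arms do not overlap between libraries, so leaving out a replicate cannot reorder them. The family level (8863 RPM) was higher where the family reads and the mapped reads were both restricted, at 10690 RPM with exact alignments only, 10710 RPM with whole-number alignments only and 10090 RPM with reads of 16 to 27 nt. It was 13960 RPM without Mir375 reads in the denominator, an alternative chosen after seeing the data, and 8857 RPM with TMM library sizes. The shifted start share of 3p reads (1.511%) was 1.017% with exact alignments and 1.46% with starts of at least 10 reads. The terminal mismatch share of 3p reads (10.49%) was 10.35% with whole-number alignments, 10.18% with the most abundant starts only and 10.34% without sequences recorded at several members (also chosen after seeing the data). The cluster ratio stayed below 1 in every alternative run. The seed ratio also stayed below 1, with 0.7321 for exact alignments, which leave out the terminal mismatches that are most frequent in miR-200b-3p and miR-200c-3p. Leaving out each replicate gave a family level of 8496 to 9207 RPM and a cluster ratio of 0.5477 to 0.5854. Of 72 alternative values for single arms, 42 moved by less than 1 SD and 30 by more. Whole-number values do not prove a single locus, since the sequence shared by Mir200a and Mir141 has whole values in replicate 1. No paired analysis was possible because there is no second group of libraries to pair with the first. Arms and clusters were compared within libraries. Depth limits the values of miR-200b-5p, miR-200c-5p and miR-429-5p, which rest on 0 to 164 reads per library.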

Other observations

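A small number of reads fell within the hairpins or their 30-nt flanks but on neither arm, with 124.7, 143.3 and 138.5 reads per library over the 5 members. The most abundant was a fragment upstream of miR-141-5p, with 36, 35 and 27.1 reads beginning at the same base, of which 95.8% were 19 nt long and ended at the base just before the reference start of miR-141-5p. Reads of miR-141-5p-2 begin 2 bases upstream of that point, so the fragment abuts the reference form and overlaps the shifted form.

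Reads between the arms began at the base that follows the RefSeq 5p sequence in 3 hairpins. Mir141 had 21, 32 and 29 such reads, Mir200a had 11, 11.3 and 13.3, and Mir200c had 9, 8.3 and 11. Their most frequent lengths were 20 nt, 16 nt and 18 nt, respectively. With at most 36 reads at any of these positions, no difference between hairpins was tested.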
